A study of Homo sapiens with 4 samples.

Results

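The SOX genes SOX1, SOX7, SOX8, SOX9, SOX10, SOX11, SOX14, SOX17, SOX18 and SOX21 encode transcription factors of the endodermal, vascular, neural crest and neural lineages. They were examined in ChIP-seq libraries of H3K27me3 and H3K4me3 from JMJD3c-hESCs, with 1 library for each mark and condition. The genes were chosen by symbol, and each of the 10 symbols names one of the 20242 deposited promoters, although the one named SOX7 lies at another gene, which leaves 9 SOX promoters. JMJD3c-hESCs derive from SEES-3, an established line of human embryonic stem cells, express the reverse Tet-transactivator, and carry a piggyBac insertion from which doxycycline (Dox) drives HA-tagged JMJD3c, the catalytic part of the H3K27 demethylase JMJD3. Untreated cells (−Dox) carried the same insertion, and treated cells (+Dox) received 1 µg/ml Dox. Both were collected on day 3 in StemFit AK-03 medium under feeder-free conditions. The line was selected with puromycin, and the number of clones behind these libraries is not given in the sources used here. Cells without the insertion that received Dox were not analysed here, so in these libraries the effect of Dox itself and that of JMJD3c cannot be told apart. The paper also gave Dox to cells with a catalytically inactive JMJD3c and reports no significant change in the RNA of its developmental genes. No library of either mark from such cells was used here.

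SOX proteins bind DNA through a high mobility group (HMG) box and are sorted by sequence into groups. SOX7, SOX17 and SOX18 form the SoxF group of endoderm and vessels, SOX8, SOX9 and SOX10 the SoxE group, which is best known for the neural crest, SOX1 belongs to SoxB1, SOX14 and SOX21 to SoxB2, and SOX11 to SoxC. In pluripotent cells the promoters of many such genes are bivalent, that is, they carry both H3K27me3, the mark written by Polycomb repressive complex 2, and H3K4me3, the mark of active or poised promoters. Polycomb in embryonic stem cells is found mainly at stretches rich in CpG dinucleotides.

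Sequences just upstream of the transcription start sites are shown for SOX1 and SOX14. They began with like levels of H3K27me3 and differed after induction, as described below, and their upstream bases overlap no annotated exon. The 200 bases before the start were read from GRCh37, the assembly behind the authors' hg19, at chr13:112721263-112721462 for SOX1 and chr3:137482957-137483156 for SOX14, both on the plus strand. Capitals mark each CG, which reads the same on both strands.
SOX1: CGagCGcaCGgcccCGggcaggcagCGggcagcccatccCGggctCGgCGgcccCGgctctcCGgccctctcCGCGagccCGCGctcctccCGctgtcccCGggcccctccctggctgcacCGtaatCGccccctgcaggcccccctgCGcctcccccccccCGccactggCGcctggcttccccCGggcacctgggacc
SOX14: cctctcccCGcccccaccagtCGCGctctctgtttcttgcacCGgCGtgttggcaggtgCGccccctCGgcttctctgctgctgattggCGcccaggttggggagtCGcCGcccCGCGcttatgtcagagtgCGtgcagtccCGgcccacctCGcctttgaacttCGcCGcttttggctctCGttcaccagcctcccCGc
These stretches held 22 CG in SOX1 and 19 in SOX14, against a median of 14 over the promoters with a position. At least as many as in SOX1 were found at 25.2% of promoters, and as in SOX14 at 35.0%.

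Over the whole window measured, 3 kb on each side of the start, CpG was dense at most of these genes. The ratio of observed to expected CpG was 0.920 at SOX1, 0.905 at SOX11, 0.860 at SOX21, 0.779 at SOX17 and 0.746 at SOX9, and it lay between 0.578 and 0.646 at SOX18, SOX14 and SOX8. The median promoter had 0.439. The row named SOX7 had 0.433. The lowest value, 0.239, was that of the SOX10 row, whose window carried neither mark but is not centred on the canonical SOX10 start.

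The identity of each row was checked before its values were used. For SOX1, SOX8, SOX9, SOX11, SOX14, SOX17, SOX18 and SOX21 the deposited transcript starts at the canonical start of the gene in GENCODE 44. The row named SOX7 carries the identifier ENSG00000258724, which GENCODE assigns to a readthrough transcript that begins at PINX1. Its start lies 109336 bp from that of SOX7 (ENSG00000171056) and 28 bp from that of PINX1, and its values therefore describe the PINX1 promoter. They were 6.85 and 6.71 for H3K27me3 and 62.4 and 63.0 for H3K4me3, next to 7.99 and 5.59 and 63.0 and 64.5 in the row named PINX1. No value for the SOX7 promoter itself was obtained. Counts over the 10 symbols include this row, which was not bivalent and had no interval that excluded 1, so that leaving it out lowers their total to 9 and changes no count of bivalent or called members. The SOX10 row starts 2867 bp from the canonical SOX10 start, which lies near the edge of its window. Much of the region around that start was therefore not measured, and the SOX10 values describe the window of the deposited row. SOX8 starts 452 bp from LMF1, so most of the window of one gene is also that of the other.

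Each value is the read coverage summed over the window, which the authors had scaled to library size. About 2629351 to 3509244 reads per library could be inferred from the steps between values, and a value of 20, the threshold the study's methods use for a marked promoter, corresponded to about 15.7 to 20.8 reads. The H3K27me3 and H3K4me3 libraries of +Dox cells gave the same inferred figure, 2682085. Whether the authors scaled both by 1 shared count was not tested, and every +Dox/−Dox ratio rests on that scaling. Intervals are 95% intervals for counting error from these approximate reads. They cover no spread between cultures, since no library was repeated, and a ratio compares 2 libraries rather than 2 conditions. Because of the scaling to reads, a loss of a mark shared by the whole genome would not be seen. The paper reports such a loss, since total H3K27me3 of this line was significantly reduced on immunoblots after Dox, also on the day sampled here. An H3K27me3 ratio is therefore relative to the reads of each library. A ratio near or above 1 does not show that a promoter kept or gained the mark. The cell type label was checked on 8 pluripotency genes (LIN28A, NANOG, SOX2, ZFP42, TDGF1, DPPA4, DNMT3B and SALL4), and all were H3K4me3-only in both conditions. Of 7 fibroblast genes, COL3A1, LUM, DCN and PDGFRB had H3K4me3 between 1.42 and 8.55 in −Dox cells, and COL1A1, COL1A2 and THY1 had 27.1, 45.6 and 92.0.

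The first question was which SOX promoters were bivalent before induction. Both marks exceeded 20 in −Dox cells at 6 of the 10, namely SOX1, SOX9, SOX14, SOX17, SOX18 and SOX21, whereas 9.42% of all promoters were bivalent. SOX8, SOX11 and the row named SOX7 were H3K4me3-only, and the SOX10 row was unmarked. At a threshold of 40 only SOX9 and SOX14 were bivalent, and the share of all promoters at that threshold is not given here.

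H3K27me3 in −Dox cells was highest at SOX17, with 185 (156 to 218), more than at 99.5% of promoters. It was followed by SOX1 with 134, SOX14 with 129, SOX9 with 45.3, SOX21 with 29.7 and SOX18 with 20.9. The values of SOX1 and SOX14 did not differ beyond counting error, and neither did those of SOX9 and SOX21 or of SOX21 and SOX18. SOX8, SOX10 and SOX11 had 3.80, 3.42 and 3.42, about 3 reads each, which is below the value of the median promoter (6.09).

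H3K4me3 in −Dox cells had another order. It was highest at SOX11, a gene of neural progenitors, with 178 (153 to 205), more than at 99.6% of promoters, and 1.38 times (1.1 to 1.73) that of SOX9, the next in order. SOX9 had 129, SOX21 104, SOX8 74.9 and SOX14 58.7. The lowest values among bivalent members were 32.8 at SOX1, 29.4 at SOX17 and 26.8 at SOX18, which did not differ between neighbours beyond counting error. The 2 members with the most H3K27me3, SOX17 and SOX1, thus stood below the median promoter (41.3) in H3K4me3. SOX14, whose H3K27me3 did not differ from that of SOX1 beyond counting error, stood above it. SOX18, with the least H3K27me3 of the bivalent members, stood below it. SOX10 had 6.55. In +Dox cells SOX11 was again the highest, followed by SOX9, SOX14 and SOX21, which did not differ between neighbours beyond counting error.

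**Figure D1:**
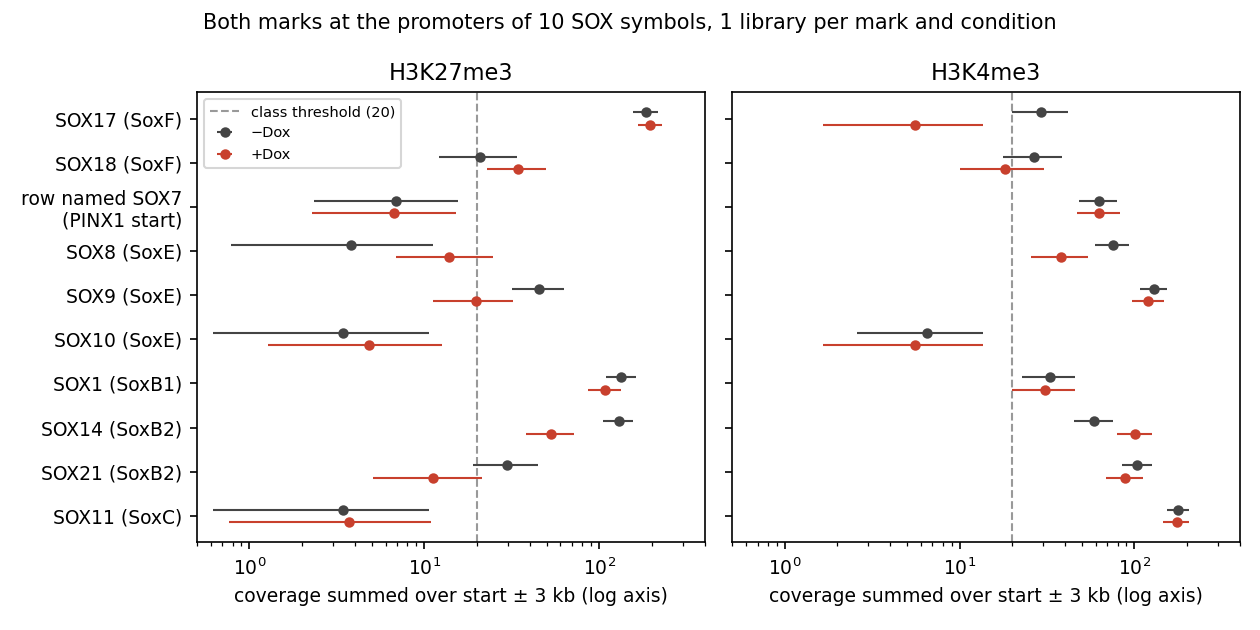
H3K27me3 and H3K4me3 at the promoters of the 10 SOX symbols as coverage summed over the start ± 3 kb (log axis), −Dox in grey and +Dox in red, with bars for 95% counting intervals. H3K27me3 of SOX17 was 185 and 195 while its H3K4me3 was 29.4 in −Dox and 5.59 in +Dox, and H3K27me3 of SOX14, SOX9 and SOX21 was lower in +Dox.

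Whether H3K27me3 at these promoters, relative to the reads of each library, was lower after induction of JMJD3c was examined next. The H3K27me3 ratio (+Dox/−Dox) had an interval below 1 at 3 of the 10, SOX14, SOX9 and SOX21, and above 1 at none. Over all promoters with a ratio the interval lay below 1 at 7.1% and above 1 at 1.47%. All 3 lie among the 6 bivalent members, and of all bivalent promoters 48.2% had an interval below 1 and 2.15% above 1, so the share among the members was near that background. The bivalent class requires a −Dox H3K27me3 value above 20, and that value is also the denominator of the ratio. This selection by itself favours ratios below 1 and loss of the class, in the bivalent members and in the bivalent background alike. The median log2 H3K27me3 ratio was 0.02 over the 10 symbols, 0.08 over the 9 SOX promoters and −0.75 over the 6 bivalent ones, next to −0.15 over all promoters and −0.81 over bivalent promoters.

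SOX14, a gene of interneuron progenitors, had an H3K27me3 value of 129 in −Dox cells, about 101 reads, and of 52.9 after induction, about 42.3 reads. Its ratio was 0.409 (0.279 to 0.592). SOX9, which is required in neural crest and cartilage, had 45.3 and 19.8, a ratio of 0.437 (0.225 to 0.811). SOX21, a counterpart of SOX14 in neural progenitors, had 29.7 and 11.2, a ratio of 0.377 (0.153 to 0.846). SOX9 and SOX21 thereby passed below the threshold and were H3K4me3-only in +Dox cells, whereas SOX14 was still bivalent. With 0.5 times as many reads behind each value, the interval of SOX14 still lay below 1, and those of SOX9 and SOX21 included 1.

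SOX17 and SOX1, the members with the most H3K27me3, had intervals that included 1. SOX17, a factor of definitive endoderm and of arterial endothelium, had 185 (about 145 reads) in −Dox cells and 195 (about 156 reads) after induction, and the ratio was 1.05 (0.836 to 1.33). SOX1, an early marker of neuroectoderm, had 134 and 108, a ratio of 0.808 (0.60 to 1.08). In +Dox cells SOX17 stood 1.8 times (1.38 to 2.37) above SOX1, and SOX1 2.04 times (1.4 to 3.02) above SOX14. The same steps in −Dox cells were 1.38 times (1.07 to 1.79) and 1.04 times (0.781 to 1.37). Of the 3 members with at least 100 in −Dox cells, 1 had an interval below 1, and 34.5% of all bivalent promoters at that level did. Of the 3 bivalent members between 20 and 100, 2 did, against 50.8% of bivalent promoters at that level.

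SOX18, a gene of blood and lymph vessels, and SOX8 had the highest ratios. SOX18 had H3K27me3 values of 20.9 before and 34.3 after induction, a ratio of 1.64 (0.858 to 3.23), and 99.6% of bivalent promoters had a ratio at or below it. SOX8 had 3.80 and 13.8, about 2.99 and 11 reads, a ratio of 3.63 (0.956 to 20.4), and LMF1, whose window it shares, had 3.80 and 15.7. Both intervals included 1. With the H3K27me3 libraries scaled to the same total, both would lie above 1, and with a median ratio of 1 over low promoters that of SOX8 would. These scalings multiply the H3K27me3 ratio of every promoter by 1.18 and 1.06. The shares of all promoters above 1 under them are not given here, so these calls are not read as particular to SOX8 or SOX18. SOX10 and SOX11 rest on about 2.69 to 3.87 reads in each library, and a change there was not detectable at this depth.

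**Figure D2:**
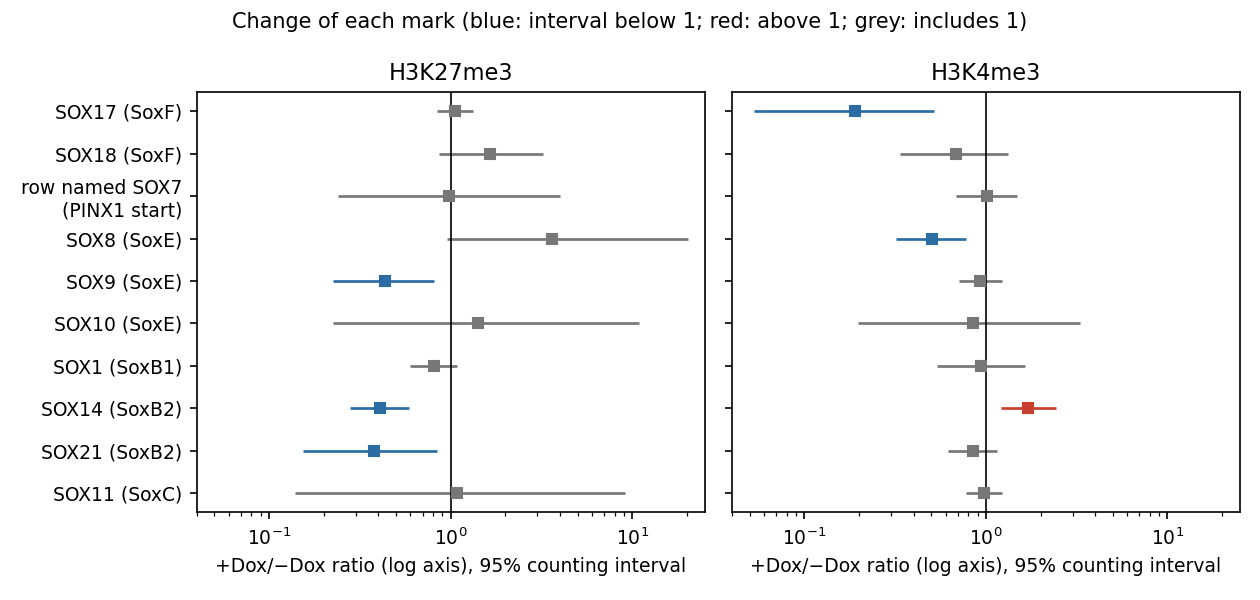
+Dox/−Dox ratio of each mark at the promoters of the 10 SOX symbols (log axis) with 95% counting intervals, from 1 library per mark and condition. H3K27me3 intervals lie below 1 at SOX14, SOX9 and SOX21, and H3K4me3 intervals lie below 1 at SOX17 and SOX8 and above 1 at SOX14.

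H3K4me3 was then compared at the same promoters. The interval of its ratio lay below 1 at 2 of the 10, SOX17 and SOX8, and above 1 at 1, SOX14. Over all promoters these shares were 3.02% and 1.74%, and over bivalent promoters 10% and 1.57%. The median log2 H3K4me3 ratio was −0.17 for the 10 symbols, −0.23 for the 9 SOX promoters, −0.03 for all promoters and −0.18 for bivalent promoters.

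At SOX17 (ENSG00000164736, chromosome 8, window 55367495 to 55373495) H3K4me3 was 29.4 (about 30.6 reads) in −Dox cells and 5.59 (about 4.44 reads) after induction. The ratio was 0.191 (0.0530 to 0.518). Among the 12887 promoters above 20 in −Dox cells it ranked 1 from the lowest ratio, and a value picked out as an extreme has an interval that understates its uncertainty. The paper lists SOX17 among the developmental genes whose RNA rose on JMJD3c induction, and reports that H3K4me3 remained at most bivalent promoters. RNA was not examined here, and how it relates to this H3K4me3 value, from 1 library per condition, was not tested. SOX17 was H3K27me3-only in +Dox cells. The only other bivalent member that became H3K27me3-only was SOX18, where H3K4me3 was 26.8 and 18.3, a ratio of 0.682 (0.335 to 1.33), so that a value close to the threshold changed its class. At SOX8 (ENSG00000005513, chromosome 16, window 1028770 to 1034770) H3K4me3 was 74.9 and 38.0, a ratio of 0.507 (0.322 to 0.782). LMF1 had 73.0 and 38.8 in largely the same window.

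SOX14 (ENSG00000168875, chromosome 3, window 137480157 to 137486157) had H3K4me3 values of 58.7 and 101, about 61.1 and 79.9 reads in libraries of unequal depth, a ratio of 1.72 (1.21 to 2.43). Its position in H3K4me3 moved from above 64.6% of promoters to above 91.2%. The H3K4me3 intervals of SOX1, SOX9, SOX10, SOX11, SOX18, SOX21 and the row named SOX7 included 1, with ratios between 0.682 and 1.01. At SOX11 the values were 178 and 174, a ratio of 0.981 (0.781 to 1.23), and at SOX9 they were 129 and 120, a ratio of 0.932 (0.709 to 1.22).

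The 2 marks were read together at the bivalent members. SOX14 combined an H3K27me3 interval below 1 with an H3K4me3 interval above 1, as did 25 of the 1907 bivalent promoters (1.31%). SOX17 combined an H3K27me3 interval that included 1 with an H3K4me3 interval below 1, as did 127 (6.66%). SOX9 and SOX21 had an interval below 1 for H3K27me3 and one that included 1 for H3K4me3, as had 848 (44.5%). At SOX1 and SOX18 both intervals included 1, as at 814 (42.7%). After induction 2 of the 6 bivalent members (SOX1 and SOX14) were still bivalent, 2 (SOX9 and SOX21) were H3K4me3-only and 2 (SOX17 and SOX18) H3K27me3-only. These classes took 51%, 39.1% and 7.24% of all bivalent promoters.

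**Figure D3:**
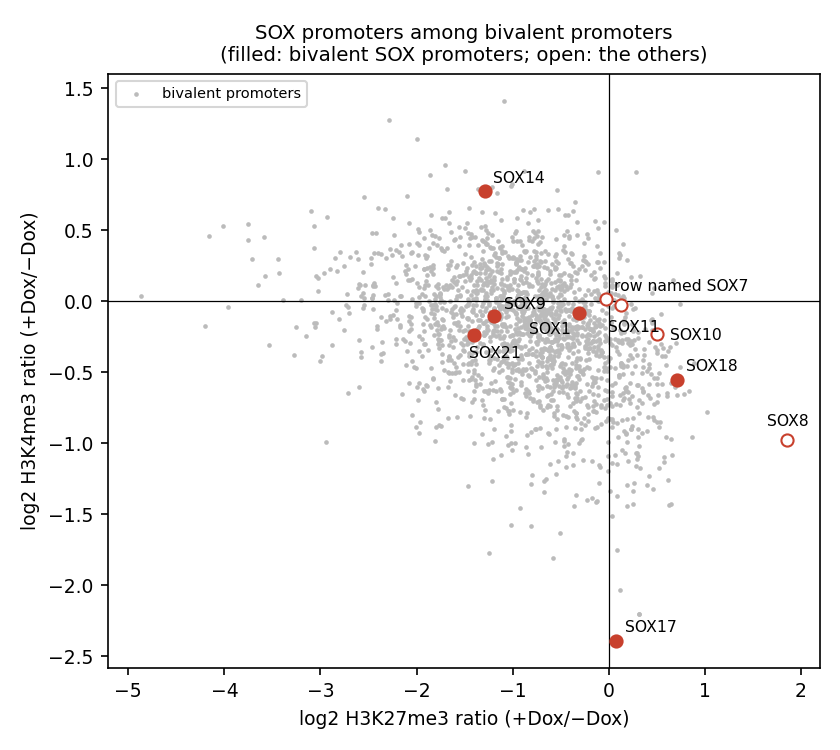
log2 H3K27me3 ratio (x) and log2 H3K4me3 ratio (y) of bivalent promoters (grey) and of the promoters of the 10 SOX symbols (red, filled where bivalent in −Dox cells). SOX14 lies at −1.29 and 0.78, and SOX17 at 0.08 and −2.39, at the lower edge of the cloud.

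The promoters whose 4 values were most like those of SOX17, by the Euclidean distance of log2(value + 5) over the 4 libraries, were HOXA6 (distance 0.548), HOXA4 (0.573) and ULBP2 (0.635). Their H3K27me3 ratios were 1.41, 1.01 and 1.14 and their H3K4me3 ratios 0.280, 0.397 and 0.407. Likeness here includes the level of each mark as well as its change.

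Ratios of both marks varied with the GC content of the window, but for H3K27me3 over all promoters not in a single direction. The median log2 H3K27me3 ratio over all promoters was −0.10 at 40 to 45% GC and −0.25 at 55 to 60%. Among promoters with 65 to 70% GC the median log2 ratio was 0.04 for H3K27me3 and −0.17 for H3K4me3, and the 26 bivalent ones had 0.03 for H3K27me3, whereas the 448 bivalent promoters with 45 to 50% GC had −1.01. SOX8 (69.1% GC) and SOX18 (66.3%) are the members with the highest GC content, and both had a high H3K27me3 and a low H3K4me3 ratio. SOX17 lies at 50.7% and SOX14 at 54.7%. Relative to the median of promoters within 1 percentage point of the same GC content, the H3K27me3 ratio was 2.70 (0.712 to 15.2) at SOX8 and 1.62 (0.849 to 3.19) at SOX18, and the H3K4me3 ratio was 0.613 (0.389 to 0.944) at SOX8. The median for SOX8 comes from only 19 promoters for H3K27me3 and 21 for H3K4me3. On this scale SOX14, SOX9 and SOX21 had H3K27me3 ratios of 0.487, 0.520 and 0.427, and SOX17 an H3K4me3 ratio of 0.195, all with intervals below 1. The reference took in all promoters, whereas bivalent ones had lower H3K27me3 medians. In log2 these were −0.86 at 50 to 55% GC and −0.56 at 55 to 60%. The log2 ratios were −1.29 at SOX14 and −1.41 at SOX21, in the lower range, and −1.20 at SOX9, in the higher. Whether these members differ from bivalent promoters of like GC content was not tested.

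**Figure D4:**
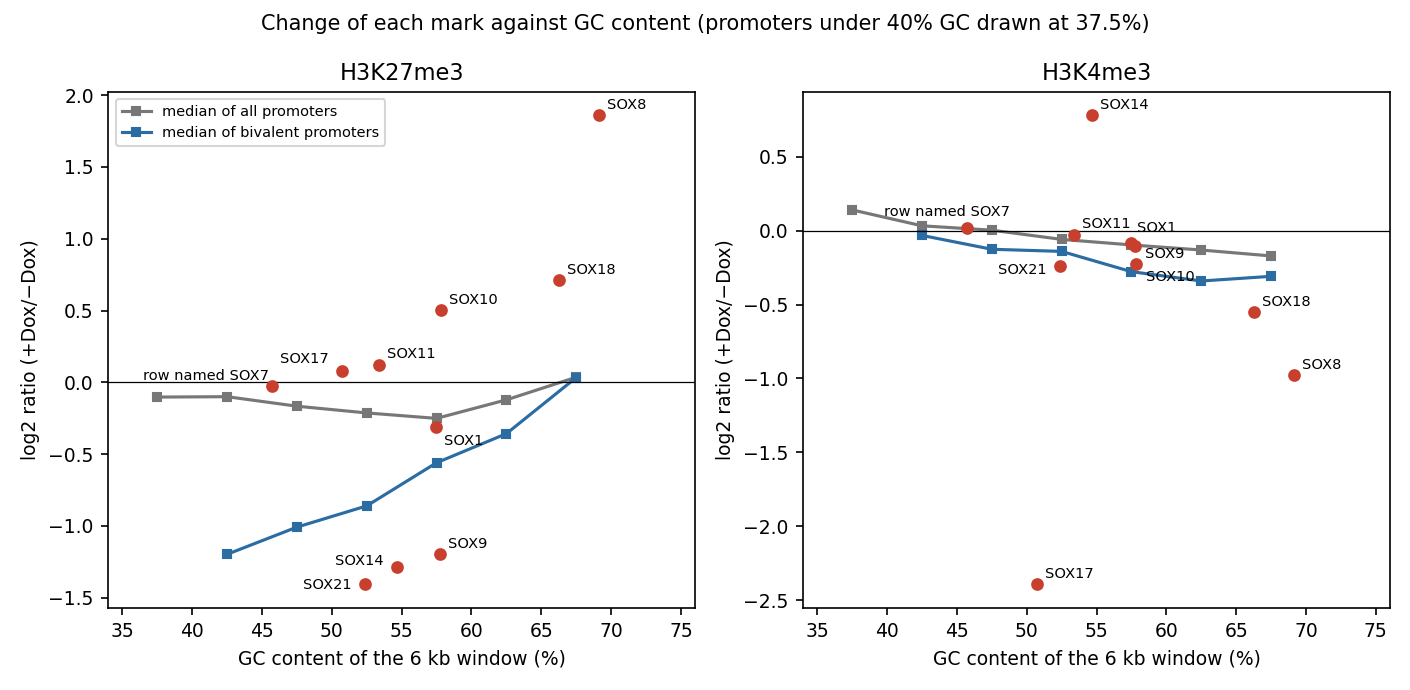
log2 ratio of each mark against the GC content of the window, with the promoters of the 10 SOX symbols in red and lines for the median of all (grey) and bivalent (blue) promoters in steps of 5 percentage points. SOX8 and SOX18, at 69.1 and 66.3% GC, lie above the lines for H3K27me3 and below them for H3K4me3, while for H3K4me3 SOX14 (54.7%) lies above the lines and SOX17 (50.7%) below them.

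Other promoters within 50 kb were few among the 18244 with a position. None of these lay near SOX1, SOX9, SOX11, SOX14, SOX17 or SOX21. Of those near SOX18, TCEA2 (7654 bp away) had H3K27me3 values of 6.09 and 3.36, RGS19 8.37 and 3.73, OPRL1 8.75 and 6.34, and C20orf201 8.75 and 14.9, all below the threshold in both conditions. Near SOX10, POLR2F (33725 bp away) had H3K4me3 values of 100.3 and 66.7 and C22orf23 (33821 bp) of 101 and 67.9.

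The other SOX genes were taken for comparison, a Y-linked gene being left out. Of these 9, SOX3 and SOX30 were bivalent, and 3 had an H3K27me3 interval below 1 and none above, against 7.1% of all and 48.2% of bivalent promoters with an interval below 1. SOX3, a SoxB1 gene like SOX1, went from 55.9 to 13.4, with a ratio of 0.240 (0.111 to 0.476). SOX30, a gene of male germ cells, had 38.4 and 14.9, a ratio of 0.388 (0.181 to 0.782), and SOX5, with a mean value below 20, had 16.0 and 2.24, a ratio of 0.14 (0.0127 to 0.662). SOX2, the SoxB1 gene of pluripotent cells, was H3K4me3-only, with H3K4me3 values of 157 and 152, a ratio of 0.973 (0.763 to 1.24), and H3K27me3 values of 6.85 and 9.69. No gene of this list had an H3K4me3 interval that excluded 1, against 3.02% of all promoters below 1 and 1.74% above.

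Genes that act beside the SOX factors in the same lineages were described by list. Among 14 endoderm genes 10 were bivalent, the median log2 H3K27me3 ratio was −0.63, and 6 had an interval below 1. All promoters had 7.1% below 1 and bivalent ones 48.2%, so with 10 bivalent genes the count is near the bivalent background. The lowest ratio, over the 12 with a mean of at least 20, was 0.211 (0.130 to 0.329) at OTX2, a factor of head and endoderm development. FOXA2, a pioneer factor of the endoderm, had a ratio of 0.236 and CER1, a secreted inhibitor of NODAL, one of 0.286, while GATA6, with values of 168 and 183, had one of 1.09 (0.856 to 1.39). No endoderm gene had an H3K4me3 interval that excluded 1. Over all promoters 3.02% lay below 1 and 1.74% above, and over bivalent promoters 10% and 1.57%.

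Of the 16 vascular genes 15 were found, all but PECAM1, and 5 were bivalent. The median log2 H3K27me3 ratio was −0.52, and the interval lay below 1 at 4, FLI1, TAL1, NR2F2 and PROX1, next to the same background of 7.1% and 48.2%. Over the 6 genes with a mean of at least 20, ratios went from 0.458 (0.253 to 0.804) at PROX1, the factor of lymphatic identity that acts downstream of SOX18, to 1.10 (0.823 to 1.47) at DLL4, a Notch ligand of arteries. H3K4me3 had an interval above 1 at FLI1 and PROX1, with ratios of 1.77 and 1.49, and below 1 at DLL4, with 0.560 (0.369 to 0.832). The shares over bivalent promoters were 1.57% above and 10% below 1, and over all promoters 1.74% and 3.02%. FLI1 and PROX1 thus had the combination described for SOX14.

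Among 14 neural crest genes 5 were bivalent, the median log2 H3K27me3 ratio was −0.30, and the interval lay below 1 at 2, NGFR and PAX7 (7.1% of all and 48.2% of bivalent promoters). NGFR, a receptor of migrating crest cells, had a ratio of 0.194 (0.0720 to 0.448), and MSX1 one of 1.23 (0.976 to 1.55), the lowest and highest of the 8 genes with a mean of at least 20. PAX7 had an H3K27me3 ratio of 0.275 (0.176 to 0.417) and an H3K4me3 ratio of 1.85 (1.18 to 2.93). This combination, as at SOX14, FLI1 and PROX1, was found at 1.31% of bivalent promoters. An H3K4me3 interval above 1 was found at 1.74% of all promoters. FOXD3 was H3K4me3-only, with 221 and 232.

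Of the 14 neural genes 10 were bivalent and 13 had a ratio, since DCX had an H3K27me3 value of 0 in both libraries. The median log2 H3K27me3 ratio was −0.20, and the interval lay below 1 at 3, NEUROG1, NEUROG2 and ZIC1, against 7.1% of all and 48.2% of bivalent promoters. Over the 10 genes with a mean of at least 20 the ratio went from 0.349 (0.189 to 0.615) at ZIC1 to 1.18 at OLIG2. The H3K4me3 interval lay below 1 at 3 neural genes, NEUROG1 with 0.333, NEUROD1 with 0.368 and POU3F2 with 0.598, against 3.02% of all and 10% of bivalent promoters. No list had a member with an H3K27me3 interval above 1, a call that was rare at 1.47% of all and 2.15% of bivalent promoters. Differences between the lists were not tested.

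**Figure D5:**
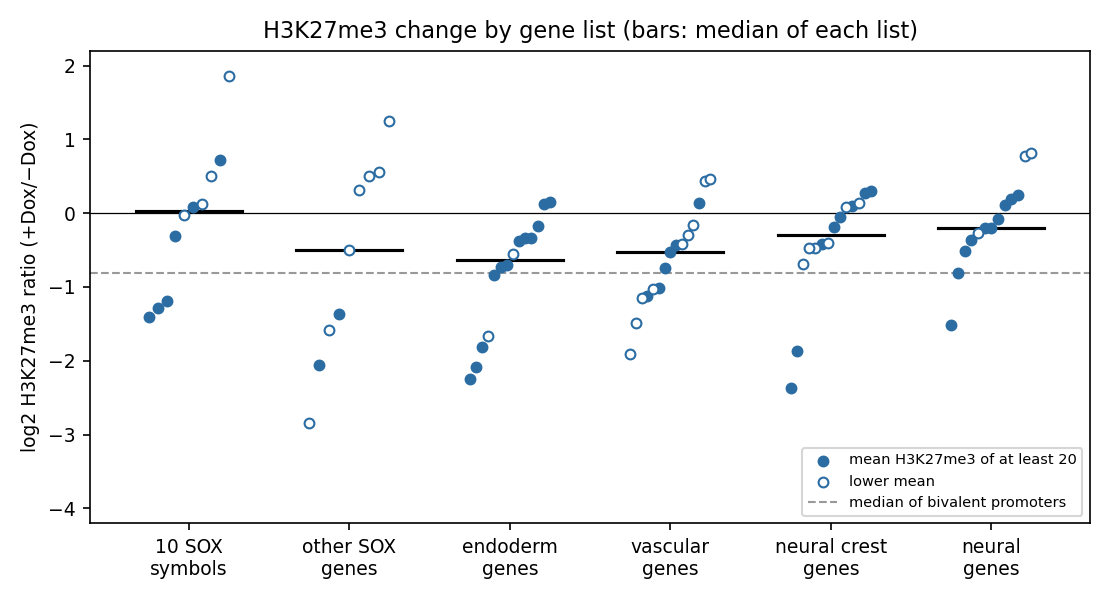
log2 H3K27me3 ratio of the promoters of the 10 SOX symbols and of 5 gene lists, with filled points for genes with a mean H3K27me3 value of at least 20, open points for lower ones, bars for list medians and a dashed line for the median of bivalent promoters (−0.81). The list medians over all genes lie between −0.63 and 0.02. Over the filled points that of the other SOX genes is −1.71, from SOX3 and SOX30 only, below the dashed line, while the rest lie above it.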

How the data were processed

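ChIP-seq libraries of H3K27me3 and H3K4me3 from −Dox and +Dox JMJD3c-hESCs were compared, 4 libraries in all. The authors used single-end MiSeq reads aligned to hg19 by Bowtie2 and excluded mitochondrial reads, and the submitters' processing notes also name CASAVA 1.4. The deposited values are signal, that is, ngs.plot coverage scaled to the library's reads and summed over 3 kb on each side of the start of 1 transcript per Ensembl gene. Versions of Bowtie2 and ngs.plot are not given in the sources used here, and the study's methods describe profiles scaled to the mean density in the 6 kb after transcription ends without stating whether the deposited values were scaled in that way. No input library was used.

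All values (100%) were whole multiples, within 0.01, of a step of 0.285 to 0.380, and 1 read covered about 3.35 to 3.38 steps, as estimated from the histogram of low values. Approximate reads, about 170335 to 957234 per library in the windows, served only for intervals. Intervals of ratios are exact (Clopper-Pearson, from the fraction of the reads found in +Dox) and those of levels are exact Poisson intervals. As no molecular identifiers mark the reads, these are not independent molecules, and all intervals cover counting error only. With 1 library per group no test was possible. A value whose interval excludes 1 was counted as called.

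The members and gene lists were chosen with earlier results of these data known. Individually named were the members, other SOX genes with H3K27me3 above 20 in either condition and SOX2, the lowest and highest H3K27me3 ratio of each list among genes with a mean of at least 20, the 3 promoters nearest to SOX17, and promoters within 50 kb of a member, apart from an item that is not reported here. SOX5 and further genes of the lists were named after their values were seen. Positions come from GENCODE 44 on GRCh37, which matched 18244 transcripts (90.1%), and transcript starts may differ from those of the annotation the authors used. Ratios and intervals were tested on simulated data. The simulated reads followed the same counting model as the intervals, so this could not test duplicate reads, spread between libraries or errors of scaling. Python 3.11.15, numpy 2.4.6, pandas 2.3.3, scipy 1.17.1 and matplotlib 3.10.9 were used. Alternatives were libraries brought to equal totals, low promoters set to a median ratio of 1, a pseudocount of 5, a minimum mean of 20, 0.5 times as many reads, and class thresholds of 10 and 40 or +Dox values, to which GC content and the omission of the row named SOX7 were added after seeing the data.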

Additional observations from a re-analysis of the deposited data

How the results depend on the processing

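The summary values over the promoters of the 10 SOX symbols were recomputed under the alternatives. Of these 37 values 32 stayed within the interval of the median or, for counts, within 1.5 times. The number with an H3K27me3 interval below 1 was 1 (SOX14) in place of 3 with 0.5 times as many reads. The number with an H3K27me3 interval above 1 was 2 (SOX8 and SOX18) in place of 0 with the libraries scaled to the same total, and 1 (SOX8) with a median ratio of 1 over low promoters. The number of bivalent members was 2 in place of 6 at a threshold of 40 and also 2 from the +Dox values. Of all 20242 promoters, 1027 were bivalent from the +Dox values and 1907 from the −Dox values. Shares over all promoters at a threshold of 40, under both scalings and with 0.5 times as many reads are not given here. The changed counts are therefore not read as particular to the members. The median log2 H3K27me3 ratio of the 10 members lay between −0.75, with a minimum mean of 20 (the 6 bivalent members), and 0.26, with the same total, so these values give it no direction. Without the row named SOX7 it was 0.08. SOX14, SOX9 and SOX21 for H3K27me3, and SOX14, SOX17 and SOX8 for H3K4me3, kept their side of 1 under both scalings and relative to all promoters of the same GC content. That GC reference was not limited to bivalent promoters, whose H3K27me3 ratios were lower. The causes of the moves were not tested. The ratios of single members and the medians of the other lists, 100 values in all, stayed within their intervals. The scalings changed ratios only by factors of 0.944 to 1.18, and many of the intervals are wide. That of the median log2 H3K27me3 ratio of the 10 members ran from −1.29 to 0.71. Staying within an interval therefore says little about stability. No paired analysis was possible because no condition was repeated, which also kept any single library from being omitted. Depth limits SOX8, SOX10 and SOX11 most, where 3 reads of H3K27me3 correspond to a value of 3.76 to 3.82.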
